A study of Mus musculus with 6 samples.

Results

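The transcripts of 10 genes of FGF-ERK signalling were followed in the transcriptome of mouse primordial germ cell-like cells (PGCLCs), the culture model of the earliest germ cells. The rule lists the genes by name and uses no measured value, but it was drawn up with earlier results of these data known. The members are the ligand Fgf4, the receptors Fgfr1 and Fgfr2, the feedback inhibitors Spry2, Spry4, Spred1 and Dusp6, and the targets Etv4, Etv5 and Egr1. All 10 were found once each among the 37991 Ensembl gene IDs of the count table, and all 10 passed the filter on low counts, which kept 16420 genes. Levels are in CPM (counts scaled by library size and TMM factors), and levels compared between genes are in RPKM (that CPM divided by the kilobases of annotated exon). Where 3 values are given for a group they follow replicates 1 to 3.

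In this pathway a fibroblast growth factor binds its receptor kinase, which passes the signal through RAS, RAF and MEK to the kinase ERK. Active ERK switches on immediate-early genes such as Egr1 and the ETS factors Etv4 and Etv5. It also induces its own brakes: Sprouty and Spred proteins act between receptor and RAF, and Dusp6 is a phosphatase that removes the activating phosphates from ERK in the cytoplasm. In embryonic stem cells Fgf4 is a main autocrine source of this signal, which moves them out of the naive state.

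The cells came from C57BL/6 embryonic stem cells with floxed Ezh2 alleles and CreERT2, a recombinase that 4-hydroxytamoxifen switches on. Ezh2 is the main H3K27 methyltransferase of polycomb repressive complex 2. The stem cells were kept with LIF, CHIR99021 and a MEK inhibitor, which blocks the step just above ERK, passed through an epiblast-like stage of 2 days with 12 ng/ml bFGF and 20 ng/ml Activin A, and were then aggregated for 4 days with EGF (50 ng/ml), SCF (100 ng/ml), BMP2 (500 ng/ml) and LIF (1000 U/ml). The 3 Ezh2 KO libraries (genotype label Ezh2-/-, CreERT2) came from aggregates whose medium held 4-hydroxytamoxifen in ethanol, 1 µl of a 1 mM stock in 10 ml, and the 3 Ctrl libraries (Ezh2f/f, CreERT2) from aggregates whose medium held ethanol alone. All Ezh2 KO libraries and no Ctrl library had the drug. Loss of Ezh2, the drug and the active recombinase therefore cannot be told apart here. No FGF is named for the aggregate step, and EGF and SCF are themselves known to activate ERK through their receptors. The sources used here do not give the promoter that drives the recombinase, the sort gate or whether the line is 1 clone. Nothing in the labels says that replicates were induced separately, and p-values therefore measure only the spread of these samples, which may be technical.

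The libraries held 27072150 to 49382146 counts. Transcripts of the targeted gene Ezh2 were at 91.8, 78.1 and 95.3 CPM in Ctrl and at 40.8, 67.1 and 70.0 CPM in Ezh2 KO, a mean of 67.1% of Ctrl (edgeR unadjusted p = 0.0361, adjusted p = 0.976). These are counts over the whole gene, in which reads from exons outside the deleted part and incomplete deletion cannot be told apart. All 8 germ cell markers were detected, from Dppa3 at 249 RPKM to Prdm1 at 1.07 RPKM in Ctrl, while the neuroectoderm, endoderm and fibroblast lists summed to between 2.39 and 9.55 CPM in every library. Naive stem cell genes summed to 690.4 to 1123 CPM, a range like that of the germ cell list (760.2 to 1034 CPM), trophoblast genes to 28.8 to 46.5 CPM, mesoderm genes to 16.2 to 23.3 CPM, and blood and endothelium genes to 6.51 to 12.0 CPM. The sums of primed epiblast genes did not overlap, at 75.4, 60.1 and 67.4 CPM in Ctrl and at 85.1, 91.1 and 108 CPM in Ezh2 KO. The genes of that list went both ways. Of the 4 tested, 2 were higher and 2 lower in Ezh2 KO, with a median log2 fold change of -0.03. Their part in the results was not tested. On the first principal component (55.5% of the variance) both replicates numbered 1 lay low, at -61.4 in Ctrl and -35.5 in Ezh2 KO, and Ezh2 KO replicate 2 lay at 78.0. The share of mitochondrial counts was 1.79% and 1.90% in the former libraries and 3.37% in the latter. In these bulk samples fewer cells of a type and less RNA per cell cannot be told apart.

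Upstream windows are shown for the phosphatase Dusp6, the inhibitor Spry2 and the ETS factor Etv5, the members with the most transcript per length in the phosphatase, Sprouty and ETS roles. They are the 250 bases before a RefSeq start site on GRCm38.p6, 5′ to 3′ on the gene's strand, and capitals mark GGAA, the core that ETS factors bind, or its reverse complement TTCC. No exon of GENCODE M21 overlaps them. The Dusp6 window is chr10:99262981-99263230 on the plus strand, the Spry2 window chr14:105896820-105897069 on the minus strand, and the Etv5 window, before the more downstream of its 2 listed starts, chr16:22438369-22438618 on the minus strand.
Dusp6: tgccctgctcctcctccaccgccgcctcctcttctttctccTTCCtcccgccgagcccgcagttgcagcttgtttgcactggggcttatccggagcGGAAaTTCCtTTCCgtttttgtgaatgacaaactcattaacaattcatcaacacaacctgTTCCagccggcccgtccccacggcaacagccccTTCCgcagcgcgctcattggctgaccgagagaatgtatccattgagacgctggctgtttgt
Spry2: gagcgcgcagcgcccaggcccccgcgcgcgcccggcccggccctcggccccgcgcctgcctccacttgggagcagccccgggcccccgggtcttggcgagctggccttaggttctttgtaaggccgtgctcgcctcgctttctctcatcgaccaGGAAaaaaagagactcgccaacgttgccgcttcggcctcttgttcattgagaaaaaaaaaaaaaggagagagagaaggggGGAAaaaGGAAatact
Etv5: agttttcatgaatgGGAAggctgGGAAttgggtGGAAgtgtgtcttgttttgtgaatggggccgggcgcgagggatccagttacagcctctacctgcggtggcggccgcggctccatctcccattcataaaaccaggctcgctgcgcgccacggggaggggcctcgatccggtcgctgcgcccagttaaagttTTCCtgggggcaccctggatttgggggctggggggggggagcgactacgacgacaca
The Dusp6 window held 6 matches to the core, the Spry2 window 3 and the Etv5 window 4, and 93.4% of all 32851 such windows held at least 1, with a median of 3. The longer form GGAAGT or ACTTCC was present in the Etv5 window alone among these, starting 217 bases before the start site, and in 19.7% of all windows. Windows were listed for 6 of the 10 members. The window before the more upstream start of Etv5, which overlaps annotated exons and is not printed, held 0 matches to GGAA, as did that of Fgf4. A match is a run of letters and not evidence of binding, and no binding was measured in these libraries.

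Per length of transcript, Etv5, Spry2 and Dusp6 had the highest mean levels and Fgfr1, Spred1 and Fgfr2 the lowest. Over all 6 libraries the order of mean levels was Etv5 (62.5 RPKM), Spry2 (43.7), Dusp6 (27.9), Fgf4 (18.4), Etv4 (12.1), Spry4 (8.82), Egr1 (7.5), Fgfr1 (4.10), Spred1 (3.57) and Fgfr2 (0.459), each in RPKM. Only some neighbours in this order were apart in every library: Dusp6 exceeded Fgf4, Egr1 exceeded Fgfr1, and Spred1 exceeded Fgfr2 in 6 of 6 libraries. Etv5 exceeded Spry2 in 3 of 6, Spry2 exceeded Dusp6 in 4, Fgf4 exceeded Etv4 in 5, Etv4 exceeded Spry4 in 3, Spry4 exceeded Egr1 in 3, and Fgfr1 exceeded Spred1 in 4. Exon lengths are the union of all annotated transcripts, so a gene with long alternative exons reads low on this scale.

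**Figure D1:**
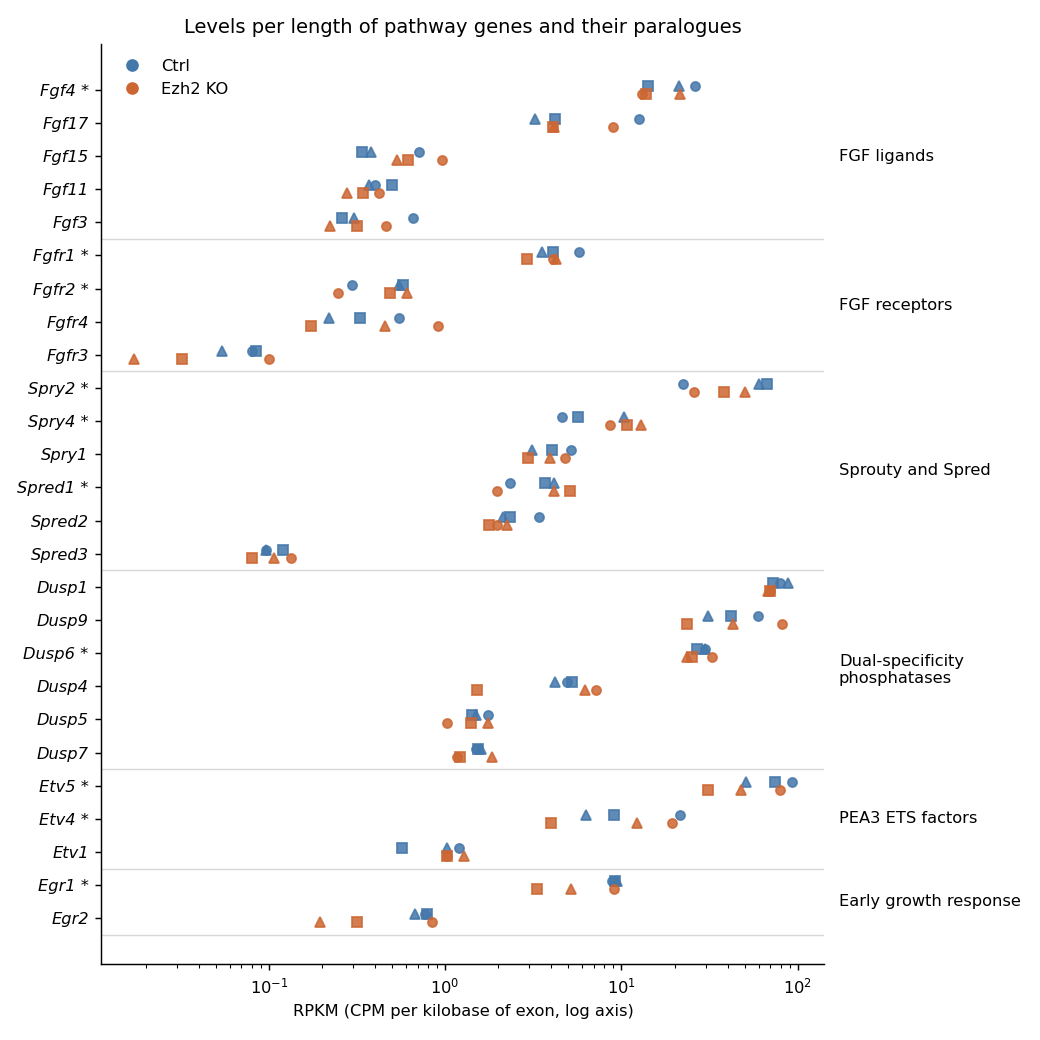
Each point is the RPKM of 1 library on a log axis (blue Ctrl, orange Ezh2 KO; circle, square and triangle are replicates 1, 2 and 3) for the members, marked with an asterisk, and for paralogues grouped by family. Etv5, Spry2, Fgf4 and Egr1 have the highest mean of their families, while Dusp6, at 27.9 RPKM on average, sits below Dusp1 (74.4) and Dusp9 (46.7).

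Fgf4 was the main FGF ligand transcript in these cells. It made up 50.0% to 79.0% of the summed RPKM of 22 FGF ligand genes in the 6 libraries. Next came Fgf17, a relative of Fgf8, with 12.1% to 34.1%. Fgf15, the gut hormone that restrains bile acid synthesis, averaged 0.591 RPKM, the intracellular family member Fgf11 0.385 RPKM and the patterning ligand Fgf3 0.370 RPKM. In CPM, Fgf4 stood at 83.9, 45.3 and 67.7 in Ctrl and at 41.9, 44.2 and 69.0 in Ezh2 KO. The groups overlapped, and the lowest value, in Ezh2 KO replicate 1, belonged to the same replicate number as the highest. The log2 fold change of Fgf4 (Ezh2 KO over Ctrl, here and below) was -0.34 ± 0.28 SE with a 95% interval of -1.0 to 0.31 (edgeR adjusted p = 0.976). Leaving out 1 library moved it to between -0.61 (without Ezh2 KO replicate 3) and -0.13 (without Ctrl replicate 1).

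Fgfr1 carried most of the receptor message. It made up 76.7% to 86.1% of the summed RPKM of the 4 signalling receptors, and Fgfr2 4.44% to 13.5%. Fgfr1 is the receptor through which naive pluripotent cells mainly read Fgf4, and Fgfr2 is better known in primitive endoderm and epithelia. Fgfr1 stood at 56.6, 40.4 and 35.1 CPM in Ctrl and at 40.6, 28.7 and 41.9 CPM in Ezh2 KO. The groups overlapped, with Ctrl replicate 1 highest and Ezh2 KO replicate 2 lowest (log2 fold change -0.25, 95% interval -0.82 to 0.32). The fold change of Fgfr1 was -0.03 without the former library and -0.08 without the latter. Fgfr2 stood at 3.05, 5.93 and 5.63 CPM in Ctrl and at 2.54, 5.02 and 6.30 CPM in Ezh2 KO. Its lowest libraries were replicate 1 of each group (log2 fold change -0.07, 95% interval -1.02 to 0.88). The fold change turned positive when Ezh2 KO replicate 1 (0.22), Ctrl replicate 2 (0.09) or Ctrl replicate 3 (0.01) was left out.

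Among the inhibitors, Spry4 had the largest positive fold change of the members, and it did not pass the test. Sprouty proteins restrain receptor signalling to RAS and RAF. Spry4 stood at 21.9, 27 and 48.9 CPM in Ctrl and at 41.2, 51.1 and 61.7 CPM in Ezh2 KO. Every Ezh2 KO library was above the Ctrl library of its number, but Ctrl replicate 3 lay above Ezh2 KO replicate 1, so the groups overlapped. The log2 fold change of Spry4 was 0.66 ± 0.32 SE (95% interval -0.08 to 1.39, edgeR unadjusted p = 0.0741, adjusted p = 0.976). With the replicate number as a block it was 0.72 ± 0.20 SE (unadjusted p = 0.00588, adjusted p = 0.466 in edgeR). Without Ctrl replicate 3 the fold change was 1.04, and without Ctrl replicate 1 it was 0.43. A level higher in Ezh2 KO in 3 of 3 pairs was found in 17.9% of all tested genes.

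Spry2, the most abundant Sprouty here, did not follow Spry4. It stood at 46.5, 139 and 125 CPM in Ctrl and at 53.5, 79.1 and 104 CPM in Ezh2 KO. Replicate 1 was the lowest of each group, and the groups overlapped over most of their range (log2 fold change -0.39, 95% interval -1.32 to 0.55). Leaving out 1 library moved it to between -0.74 (without Ctrl replicate 1) and -0.12 (without Ctrl replicate 2). Spry4 took 14.4%, 7.46% and 14.0% of the summed Sprouty RPKM (Spry1, Spry2 and Spry4) in Ctrl, and the shares in Ezh2 KO were 22.2%, 20.8% and 19.4%. These shares did not overlap (exact two-sided permutation test, p = 0.1, the smallest that 3 libraries against 3 allow). The share was singled out after the values were seen, among 13 such family shares, over which its adjusted p was 0.65.

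Spred1, a membrane-bound relative of Sprouty that brings neurofibromin to RAS, stood at 15.9, 25.0 and 28.2 CPM in Ctrl and at 13.4, 34.5 and 28.1 CPM in Ezh2 KO. As with Spry2, replicate 1 was the lowest of each group (log2 fold change 0.14, 95% interval -0.72 to 0.99). The fold change turned negative without Ctrl replicate 1 (-0.07) or without Ezh2 KO replicate 2 (-0.13). Spred1 supplied 40.1% to 73.4% of the summed Spred RPKM, the rest being almost all Spred2.

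Dusp6 had the smallest range over the libraries under TMM scaling. It stood at 92.9, 83.9 and 93.0 CPM in Ctrl and at 102, 78.3 and 73.4 CPM in Ezh2 KO. The highest and the lowest library were both Ezh2 KO and differed 1.39-fold. Its log2 fold change was -0.09 ± 0.17 SE with a 95% interval of -0.49 to 0.31, the narrowest of the 10, and turned to 0.0048 without Ezh2 KO replicate 3. The range of Dusp6 over the 6 libraries was 0.48 on the log2 scale, against a median of 0.58 for 1628 tested genes of similar level.

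The ETS factors of the PEA3 group are activators induced by ERK and used as its transcriptional readout. Etv5 stood at 378, 306 and 207 CPM in Ctrl and at 324, 126 and 195 CPM in Ezh2 KO. Each Ezh2 KO library was below the Ctrl library of its number, and the groups overlapped. The log2 fold change of Etv5 was -0.47 ± 0.35 SE (95% interval -1.27 to 0.33, edgeR adjusted p = 0.976), and a lower level in 3 of 3 pairs was found in 14.8% of all tested genes. Ezh2 KO replicate 2 was the lowest library, and the fold change without it was -0.19, against -0.89 without Ezh2 KO replicate 1.

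Etv4 varied most between libraries under TMM scaling. It stood at 66.7, 28 and 19.5 CPM in Ctrl and at 60.4, 12.4 and 38.1 CPM in Ezh2 KO. Replicate 1 was the highest of each group, and the pairs disagreed in direction: the log2 ratio was -0.14, -1.18 and 0.97 in pairs 1 to 3. The fitted log2 fold change was -0.04 ± 0.60 SE with a 95% interval of -1.43 to 1.35. It turned positive without Ctrl replicate 1 (0.64) or without Ezh2 KO replicate 2 (0.38). Etv5 held 77.8% to 88.6% of the summed RPKM of Etv1, Etv4 and Etv5, and Etv4 10.7% to 20.1%.

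Egr1, a zinc finger factor transcribed within minutes of ERK activation, was even in Ctrl and uneven in Ezh2 KO under TMM scaling. It stood at 39.7, 41.2 and 42.2 CPM in Ctrl and at 40.7, 14.9 and 23.1 CPM in Ezh2 KO. Replicates 2 and 3 of Ezh2 KO lay below all Ctrl libraries and replicate 1 lay among them. The log2 fold change of Egr1 was -0.64 ± 0.34 SE (95% interval -1.43 to 0.14, edgeR unadjusted p = 0.0950, adjusted p = 0.976). With the replicate block it was -0.76 ± 0.29 SE (unadjusted p = 0.0305, adjusted p = 0.494 in edgeR). Without Ezh2 KO replicate 1 the fold change was -1.11, and without Ezh2 KO replicate 2 it was -0.36. Egr1 held 91.0% to 95.9% of the summed Egr RPKM.

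**Figure D2:**
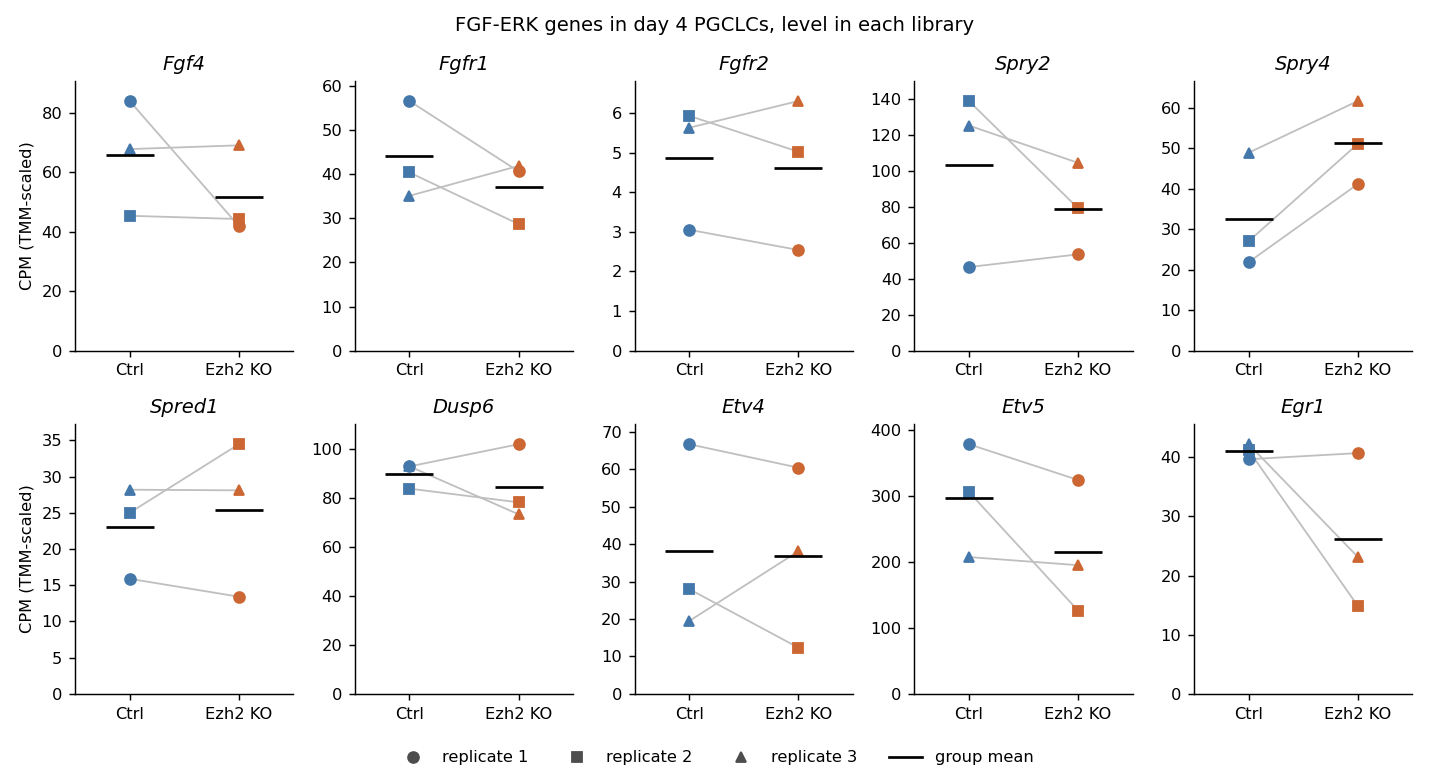
Each panel plots 1 member in CPM from 0 upward for the 3 Ctrl and 3 Ezh2 KO libraries, with grey lines joining libraries of the same replicate number and black bars at the group means. Spry4 is higher in Ezh2 KO along all 3 lines (21.9 to 41.2, 27 to 51.1 and 48.9 to 61.7 CPM) and Etv5 lower along all 3, while the other members have lines in both directions.

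In the set as a whole, 0 of 10 members passed edgeR's quasi-likelihood test between Ezh2 KO and Ctrl, where 0% of all tested genes were called. At an unadjusted p under 0.05 edgeR had 0 members, against 1.55% of all tested genes higher and 1.25% lower (2.8% together). DESeq2 called 0 members, and 0.02% of the genes it tested, and had 0 members at that unadjusted threshold against 2.73%. Limma-voom called 0 and had 1 member (Spry4) there, against 2.81%. With the replicate block edgeR had 2 members at that unadjusted threshold (Spry4 and Egr1), against 9.1% of all tested genes, and DESeq2 with the block had the same 2, against 4.71%. Both called 0 members, where DESeq2 with the block called 0.281% of its genes. The libraries of the groups overlapped for all 10 members; they did not overlap for 8.09% of all tested genes (4.07% higher and 4.03% lower). In 3 of 3 pairs 1 member was higher and 1 lower, and 32.6% of all tested genes had such pairs. Of the 10 log2 fold changes 8 were negative and 2 positive, where 48.7% of all tested genes were negative, and the median was -0.17 against 0.01 over all tested genes. The intervals were wide: that of Spry4 reached up to 1.39 and those of Etv4, Egr1, Spry2 and Etv5 down to -1.27 or below, so differences of 2-fold lay inside them.

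**Figure D3:**
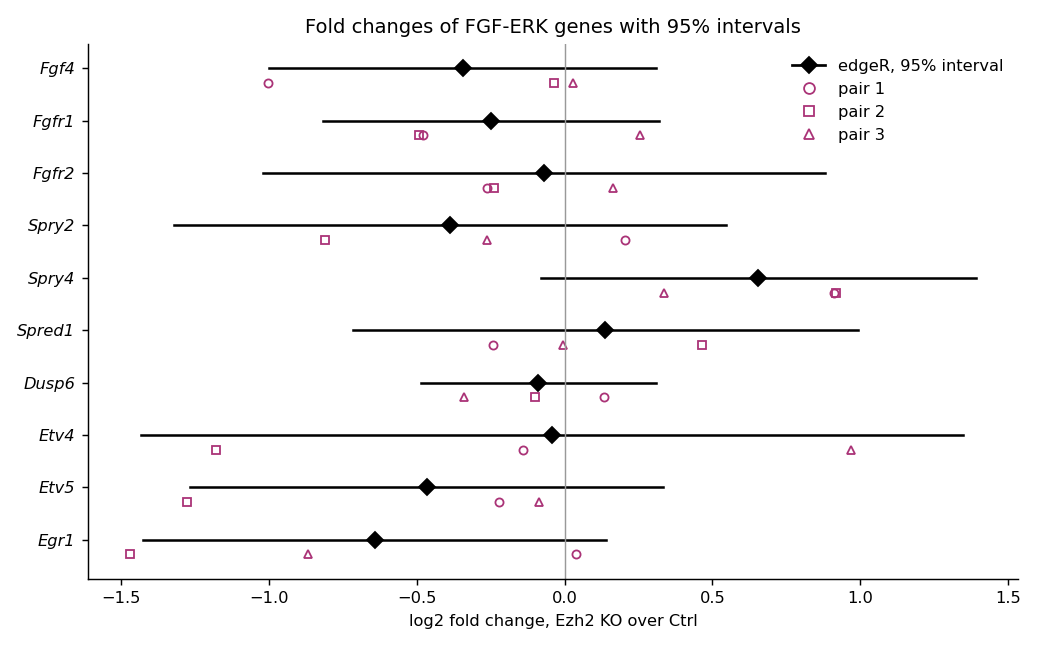
Black diamonds are the log2 fold changes of the 10 members from edgeR with 95% intervals, and open symbols are the log2 ratios of same-numbered libraries. All 10 intervals include 0, with Dusp6 the narrowest (-0.49 to 0.31) and Etv4 the widest (-1.43 to 1.35).

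For all 10 members the libraries of 1 group lay farther apart than the group means. The share of all tested genes with this trait was not computed, so the trait cannot be called particular to the members. The members split by which libraries were high. Under TMM scaling Etv4, Etv5 and Fgfr1 were highest in Ctrl replicate 1 and lowest in Ezh2 KO replicate 2. Those libraries end the first principal component, and Etv5 followed the order of the 6 libraries on that component exactly. Spry2, Fgfr2 and Spred1 had their lowest levels in both replicates numbered 1, and Spry4 its lowest in Ctrl replicate 1. The span from lowest to highest library was 5.4-fold for Etv4, 3.00-fold for Etv5, 2.99-fold for Spry2, 2.84-fold for Egr1, 2.82-fold for Spry4 and 2.57-fold for Spred1. On the log2 scale the range of Etv4 was 2.43 and that of Etv5 1.58, wider than in 97.2% and 96.5% of tested genes of similar level.

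Transcript GC content followed this split, by a narrow margin between Etv5 and Spry4. The longest annotated transcripts of Etv4, Fgfr1 and Etv5 have 58.7%, 55.4% and 51.8% GC. Those of Fgfr2, Spry2 and Spred1 have 50.2%, 46.2% and 41.2%, and that of Spry4 lies between those of Fgfr2 and Etv5. Egr1, which was on neither side of the split, has 57.3%. After an offset for GC content was fitted in each library, the range of Etv4 on the log2 scale was 1.37, that of Fgfr1 0.40 in place of 0.98, and that of Egr1 1.1 in place of 1.5, while Spry2 (1.41 in place of 1.58), Etv5 (1.36 in place of 1.58) and Spry4 (1.56 in place of 1.49) moved less. With the offset Spry4 had the widest range of the members and Fgfr1, not Dusp6 (0.44), the narrowest. Relative to its mean, Egr1 then lay at -0.05, 0.32 and 0.56 (log2) in Ctrl and at 0.12, -0.54 and -0.42 in Ezh2 KO. Etv4 was then highest in Ezh2 KO replicate 1 (0.65, against 0.61 in Ctrl replicate 1). Fgfr1 was then lowest in Ezh2 KO replicate 1 (-0.17, against -0.08 in Ezh2 KO replicate 2). Etv5 kept its highest and lowest libraries. Under this offset 0 members were called and 0 had an edgeR unadjusted p under 0.05. With the replicate block added, 0 were called and 3 (Egr1, Etv5 and Spry4) were under that threshold, as were 1516 genes in all. The share of those genes among all tested was not computed. The part of RNA quality in these differences was not tested.

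**Figure D4:**
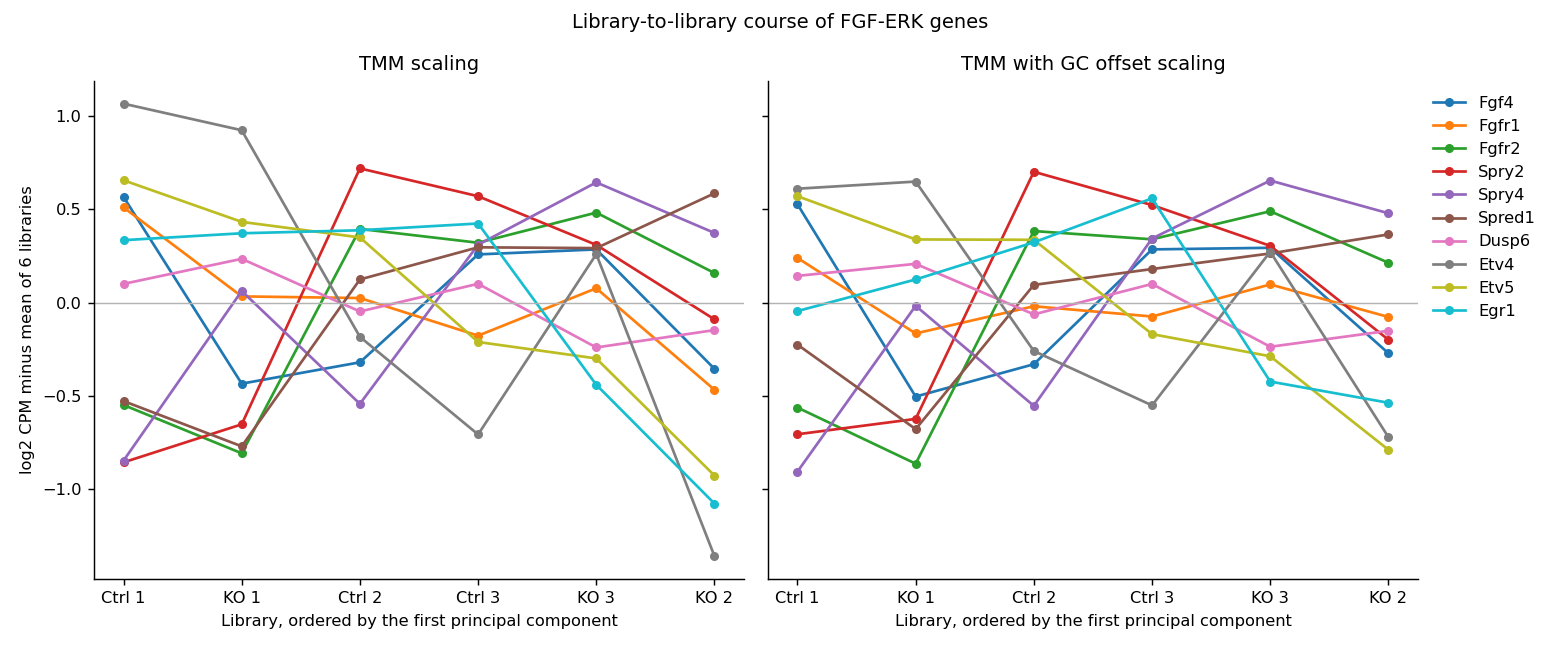
Lines give each member's log2 CPM minus its mean of 6 libraries, with the libraries ordered along the first principal component, under TMM scaling (left) and with the GC offset added (right). Etv4 spans 2.43 on the left and 1.37 on the right, and Spry2 and Fgfr2 stay low in Ctrl 1 and KO 1 in both panels.

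The wider pathway lists gave 0 called genes as well. Of 21 other FGF ligands 9 were tested (3 positive, 6 negative, median -0.29), and the 12 not tested were at or below 0.557 CPM in every library. Fgf10, a mesenchymal ligand of limb and lung buds, stood at 0.680, 0.426 and 0.531 CPM in Ctrl and at 1.36, 2.24 and 1.28 CPM in Ezh2 KO, without overlap. Its log2 fold change was 1.55 ± 0.40 SE (edgeR unadjusted p = 0.00424, adjusted p = 0.976). Fgf8, a ligand of the primitive streak, was at or below 0.783 CPM in all libraries.

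Of 8 other receptors and co-receptors 6 were tested (2 positive, 4 negative, median -0.46). Fgfrl1, a receptor without a kinase domain, stood at 1.42, 1.24 and 2.58 CPM in Ctrl and at 0.722, 0.811 and 1.09 CPM in Ezh2 KO. Its log2 fold change was -0.99 ± 0.41 SE (edgeR unadjusted p = 0.0394, adjusted p = 0.976). Flrt2, a membrane protein that binds FGF receptors, stood at 0.309, 0.958 and 0.460 CPM and at 0.187, 0.0386 and 0.0247 CPM, near the limit of detection. The log2 fold change of Flrt2 was -2.67 ± 0.78 SE (edgeR unadjusted p = 0.00924, adjusted p = 0.976). Both genes were lower in Ezh2 KO without overlap between the groups, as were 4.03% of all tested genes. Flrt3 averaged 1.45 RPKM, Fgfr4 0.439 RPKM and Klb, the co-receptor of endocrine FGFs, 0.131 RPKM.

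Receptors for the growth factors in the medium were unequal in level. Kit, the SCF receptor of germ cells, stood at 59.6, 272 and 171 CPM in Ctrl and at 211, 117 and 139 CPM in Ezh2 KO, with Ctrl replicate 1 lowest (log2 fold change -0.11, 95% interval -1.21 to 1.00). Egfr, the receptor of EGF, was low, at 0.965 to 2.41 CPM or 0.125 RPKM on average. Its partners averaged 5.31 RPKM (Erbb3) and 1.44 RPKM (Erbb2), and Erbb4 was at or below 0.0247 CPM. Of the 4 tested, 1 was positive and 3 negative, with a median of -0.17.

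All 24 genes of the relay from receptor to ERK were tested (11 positive, 13 negative, median -0.01). The most abundant per length were the adaptor Gab1 (65.2 RPKM on average), the kinase gene Map2k1 that encodes MEK1 (59.7), Nras (41.3) and the ERK substrate kinase Rps6ka1 (18.9). Mapk3, which encodes ERK1, stood at 43.7, 34.3 and 24.1 CPM in Ctrl and at 26.1, 13.2 and 23.5 CPM in Ezh2 KO. It was lower in 3 of 3 pairs with overlapping groups (log2 fold change -0.70 ± 0.32 SE, edgeR unadjusted p = 0.0600, adjusted p = 0.976). Such pairs were found in 14.8% of all tested genes. With the GC offset the range of Mapk3 on the log2 scale was 0.76 in place of 1.72. Rps6ka2, another kinase downstream of ERK, had a log2 fold change of -0.47 (95% interval -1.16 to 0.22).

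Of the 10 tested among 12 other feedback inhibitors found, 3 were positive and 7 negative, with a median of -0.12. Dusp1, a nuclear phosphatase of several MAP kinases, stood at 263, 239.6 and 289.8 CPM in Ctrl and at 229.8, 232 and 224 CPM in Ezh2 KO. These groups did not overlap, but the difference was small (log2 fold change -0.21 ± 0.13 SE, edgeR adjusted p = 0.976). Dusp9, an ERK phosphatase encoded on the X chromosome, ranged from 63.9 to 221 CPM, with its extremes in Ezh2 KO replicates 2 and 1. Dusp4, another nuclear phosphatase, was at 4.13 CPM in Ezh2 KO replicate 2 and between 11.5 and 19.6 CPM in the other libraries. With the GC offset the log2 range was 0.97 in place of 1.79 for Dusp9 and 1.60 in place of 2.23 for Dusp4. That of Dusp1 widened to 0.56 from 0.37. Errfi1, which restrains receptors of the EGF family, averaged 9.64 RPKM, and Spred2 had a log2 fold change of -0.39 (95% interval -1.0 to 0.21).

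Of 27 other transcription targets 23 were tested (8 positive, 15 negative, median -0.11). Ier2, an immediate-early gene, was the most abundant at 252 RPKM on average. It stood at 522, 391 and 476 CPM in Ctrl and at 364, 177 and 369 CPM in Ezh2 KO, without overlap (log2 fold change -0.61 ± 0.27 SE, edgeR unadjusted p = 0.0568, adjusted p = 0.976). Btg2, an antiproliferative early gene, went the other way, from 43.9, 49.6 and 62.4 CPM to 63.1, 63.8 and 75.9 CPM (0.38 ± 0.19 SE, adjusted p = 0.976). With the GC offset the log2 range of Ier2 was 0.88 in place of 1.56, while that of Btg2 stayed at 0.79. Junb, an AP-1 subunit, was at 8.92 CPM in Ezh2 KO replicate 2 and at 56.2 to 82.3 CPM in the other libraries, and Egr1 was lowest in that library too. Mcl1, an anti-apoptotic gene, averaged 27.3 RPKM and had its lowest level in Ezh2 KO replicate 1.

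Early genes are also known to respond to cell dissociation and sorting, which these cells went through. The 17 genes of a dissociation list, 12 of which are also members or in the lists above, summed to 1119.7 to 1318 CPM in Ctrl and to 1244, 797 and 1075 CPM in Ezh2 KO, lowest in replicate 2. Of the 16 tested, 4 were positive and 12 negative (median -0.16). Among those not in the lists above, log2 fold changes were -0.11 for the heat shock gene Dnajb1 and 0.09 for Hsph1. They were -0.41 for both Hspa1a and Hspa1b, and 0.34 for Socs3. Whether handling bears on the level of Egr1 was not tested.

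**Figure D5:**
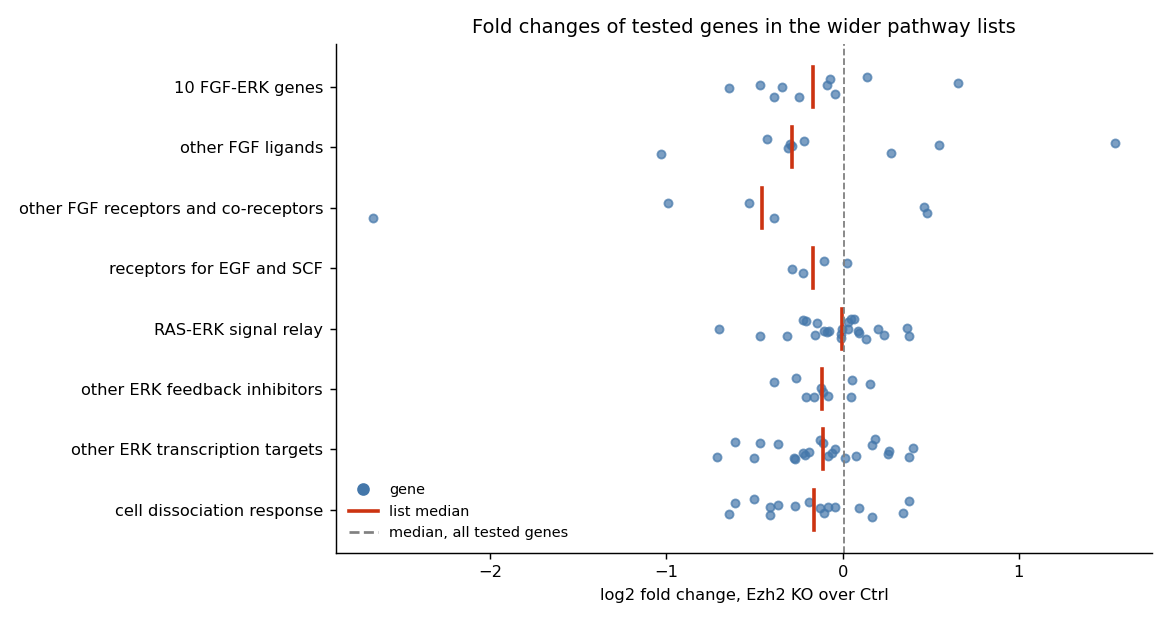
Each point is the log2 fold change of 1 tested gene, by list, with red bars at the list medians and a dashed line at the median of all tested genes (0.01). The list medians lie between -0.46 and -0.01, and the points farthest out, Flrt2 (-2.67) and Fgf10 (1.55), belong to genes of low level.

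The average course of the members over the libraries was the mean of their standardised log2 CPM, scaled again to unit standard deviation. Among 11790 genes compared, this course was most like that of Cdr2l, Tspan17, Zadh2 and Dtwd2. The root mean square difference over the 6 libraries was 0.10 to 0.146 standard deviations. Cdr2l stood at 13.8, 13.5 and 14.4 CPM in Ctrl and at 11.8, 8.53 and 14.3 CPM in Ezh2 KO, low in Ezh2 KO replicate 2. The average course was lowest in that library too, at -2.05, but it does not stand for every member. Spred1, Spry4 and Fgfr2 were above their own means there, and the other members below theirs.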

How the data were processed

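RNA-seq was analysed for 3 Ctrl and 3 Ezh2 KO libraries of day 4 PGCLCs. The authors deposited raw read counts for each Ensembl gene ID. The submitters' processing notes name CASAVA 1.8.4, Trimmomatic 0.33, TopHat2 2.0.11, featureCounts, mm9 and NCBIM37. Strand use and annotation version were not given in the sources used here, so reads of antisense or overlapping genes cannot be told apart. Symbols, exon lengths and GC content came from GENCODE M21 by gene ID (32919 of 37991 matched), upstream windows from RefSeq.

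Genes kept by filterByExpr (minimum count 10) were tested with the robust quasi-likelihood F-test of edgeR 4.0.16 (TMM, group only, two-sided, Benjamini-Hochberg over all 16420 genes, threshold 0.05; limma 3.58.1, DESeq2 1.42.0 and R 4.3.3 beside it). SEs derive from the F statistic. The scripts were tested on simulated counts drawn without replicate or GC effects. That test does not measure power or error rates in these libraries. Replicate numbers occur in both groups, and deviations from the group means correlated at 0.58, 0.37 and 0.19 in same-numbered pairs, all over 0.1, so the numbers were taken to pair the libraries, although Ctrl replicate 3 correlated more with Ezh2 KO replicate 2 (0.30). These correlations come from the same data and cannot establish that the libraries were prepared in pairs, so the pairing is an assumption. The GC offset was a loess per library (span 0.5). Members and lists were chosen with earlier results of these data known. Named beside the members were, per list, called genes, up to 4 genes of highest RPKM and the 2 of smallest p; others were named after their values were seen. Of 13 other feedback inhibitors 1, Spry3, had no ID in the table. Alternatives were other scalings, filters and tools, the block, the GC offset, each library left out and, chosen after seeing the data, both ends of the first component left out.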

Additional observations from a re-analysis of the deposited data

How the results depend on the processing

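Over 16 alternatives for each of 10 members, 0 of 160 fits called a member. The direction held in 145 of them, and in all 16 for Spry2, Fgf4, Spry4 and Egr1, though sizes moved. With Ctrl replicate 1 and Ezh2 KO replicate 2, the ends of the first component, both left out, 4 fold changes turned: Etv5 0.014, Etv4 1.05 (edgeR unadjusted p = 0.00594, adjusted p = 0.9996), Fgfr1 0.13 and Spred1 -0.34, and Fgf4 was at -0.02. Etv4 also turned under the GC offset (0.15), and with the offset and the replicate block Etv4 was at 0.14 and Spred1 at -0.031. The replicate block alone changed no call of a member or list. Leaving out each library in turn gave -0.59 to 0.64 for Etv4, -0.13 to 0.44 for Spred1, -0.36 to 0.22 for Fgfr2 and -0.25 to 0.0048 for Dusp6, where the turn of Dusp6 came without Ezh2 KO replicate 3. It gave -0.89 to -0.19 for Etv5, -0.74 to -0.12 for Spry2, -0.61 to -0.13 for Fgf4, -0.41 to -0.03 for Fgfr1, -1.11 to -0.36 for Egr1 and 0.43 to 1.04 for Spry4. Members without overlap between groups numbered 0 to 4 in those fits, with 4 without Ezh2 KO replicate 1, and 4 with both end libraries left out. Fewer libraries overlap less often by construction. The share over all tested genes was not computed for these smaller sets, so the counts are no result about the members. Over all genes, edgeR called 0, DESeq2 5 and DESeq2 with the replicate block 50, none of them a member. The cause of these turns was not tested. The wider lists had 0 called genes under every alternative run.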
